A study of Mus musculus with 10 samples.

Results

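The 5 regions described here are stretches of the mouse genome in which DNase I hypersensitive (DHS) sites were densely packed, rich in footprints or rich in footprints with a score of -Inf. A DHS site is a stretch of open chromatin that DNase I cuts often, and a footprint is a short stretch inside it with few cuts, read as DNA covered by a bound protein. In mm9, the genome build of the deposited lists, the regions are chromosome 17 from 13 to 14 Mb, chromosome 2 from 77 to 78 Mb (the proximal chromosome 2 region), chromosome 2 from 177 to 178 Mb (the distal chromosome 2 region), chromosome 6 from 130 to 131 Mb and chromosome 5 from 14 to 16 Mb. A site belonged to a region if it started there, and a footprint if it lay inside. By this rule the regions held 750 of the 129028 DHS sites (0.581%) and 2245 of the 329076 footprints (0.682%). The regions were picked from these lists by their numbers of sites, footprints and -Inf scores, so those numbers are given as a description and were not tested.

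The cells were 3T3-L1, an established clonal mouse pre-adipocyte line, harvested 4 h after induction of fat cell differentiation with 10% fetal calf serum, insulin at 1 µg/mL, the glucocorticoid dexamethasone at 1 µM and the phosphodiesterase inhibitor 3-isobutyl-1-methylxanthine at 0.5 mM. The DNase group had 2 samples, both further sequencing of 1 library, and the authors pooled them with earlier reads of that library before calling sites and footprints. Every value below therefore describes 1 pooled library without replicates, and no read depth accompanies the lists. The 8 RNA-seq samples of the study were not analysed here.

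Duplicated gene clusters arise when a stretch of a chromosome is copied next to itself or nearby, and the copies then diverge. They often hold families of related genes, such as zinc finger repressors, receptors of natural killer cells or genes used in the testis. Open chromatin in such clusters is hard to assign to a single copy, because short reads from near-identical copies can match several places. The sources used here do not say how the authors treated such reads, and its part in the values below was not tested. No gene annotation of mm9 was used here, so no gene was placed in a region. Whether the regions hold duplicated sequence could be examined only through sites and footprints that recur in the same pattern. By that measure the chromosome 17, distal chromosome 2 and chromosome 5 regions held blocks joined by footprints of equal width and score. The chromosome 6 region held 2 such pairs of footprints and a recurring run of sites. The proximal chromosome 2 region held no such pair of footprints, and its only recurring run of sites matched in reversed order with unlike site widths. By equal footprints, its name as a duplicated cluster was thus not borne out.

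To show how alike the members of such families can be, promoters of gene families on these chromosomes were taken from RefSeq (build GRCm38.p6). The families were picked by name, and their place in the mm9 regions was not established. The sequences are 300 bases around a gene's start, and from each family the pair with the fewest differences is given. Among the 7 zinc finger genes examined on chromosome 2 (Zfp931, Zfp966, Zfp967 and Zfp970 to Zfp973), the promoters of Zfp966 (chr2:175931051-175931350, minus strand) and Zfp967 (chr2:176520754-176521053, plus strand) were identical over all 300 bases.
Zfp966 and Zfp967: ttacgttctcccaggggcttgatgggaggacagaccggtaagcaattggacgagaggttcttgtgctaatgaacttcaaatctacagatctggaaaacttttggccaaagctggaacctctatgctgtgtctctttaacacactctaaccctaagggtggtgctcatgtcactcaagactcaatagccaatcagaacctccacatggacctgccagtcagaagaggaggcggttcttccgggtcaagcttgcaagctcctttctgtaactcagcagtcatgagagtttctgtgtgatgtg
Among the 7 Speer4 genes of chromosome 5, which code for glutamate-rich proteins of the testis, Speer4e (chr5:14938426-14938725, minus strand) and Speer4c (chr5:15714222-15714521, minus strand) differed at 4 bases, shown in capitals.
Speer4e: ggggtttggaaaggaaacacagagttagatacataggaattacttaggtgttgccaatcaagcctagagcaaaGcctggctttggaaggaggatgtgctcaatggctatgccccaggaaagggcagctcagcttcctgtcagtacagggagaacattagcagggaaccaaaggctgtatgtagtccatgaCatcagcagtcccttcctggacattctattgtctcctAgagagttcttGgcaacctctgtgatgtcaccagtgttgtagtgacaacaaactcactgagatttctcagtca
Speer4c: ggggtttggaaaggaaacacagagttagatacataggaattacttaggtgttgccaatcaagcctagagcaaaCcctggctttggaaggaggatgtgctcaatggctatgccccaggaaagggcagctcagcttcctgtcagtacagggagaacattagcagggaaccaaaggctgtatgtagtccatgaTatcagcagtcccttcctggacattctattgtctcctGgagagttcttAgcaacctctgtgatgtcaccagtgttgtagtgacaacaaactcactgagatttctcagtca
Among the 3 Tcp10 genes of chromosome 17, which belong to the t-complex, the closest were Tcp10b (chr17:13060861-13061160, plus strand) and Tcp10c (chr17:13354322-13354621, plus strand). With the 300 bases aligned end to end, 18 bases had no partner, shown in capitals, and an unbroken run of 238 bases was shared. Capitals at the outer ends arise where inserted bases inside shift the other sequence past the window, so they need not be differences between the genes.
Tcp10b: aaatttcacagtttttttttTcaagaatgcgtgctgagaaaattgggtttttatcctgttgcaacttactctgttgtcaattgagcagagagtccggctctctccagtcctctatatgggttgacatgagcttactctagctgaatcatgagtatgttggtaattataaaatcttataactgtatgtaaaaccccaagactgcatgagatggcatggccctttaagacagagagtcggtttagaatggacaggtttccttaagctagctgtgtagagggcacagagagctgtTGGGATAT
Tcp10c: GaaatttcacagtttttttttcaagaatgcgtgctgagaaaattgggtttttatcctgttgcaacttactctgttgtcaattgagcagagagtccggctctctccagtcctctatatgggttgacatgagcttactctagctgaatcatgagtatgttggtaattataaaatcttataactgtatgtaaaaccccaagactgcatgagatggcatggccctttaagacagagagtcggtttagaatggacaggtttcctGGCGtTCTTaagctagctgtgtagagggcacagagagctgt
Among the Klra genes of chromosome 6, which code for natural killer cell receptors, the closest pair was Klra4 and Klra8. It had 42 differences in the same kind of alignment, of which 36 were substitutions. The sequence of the footprints themselves was not read, since no mm9 genome was used.

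The regions were unlike in how many sites they held. The chromosome 17 region had 205 DHS sites, the most of the 2575 bins of 1 Mb that held any site. The distal chromosome 2 region followed with 149 sites and the chromosome 6 region was next with 147. The proximal chromosome 2 region had 108 sites (rank 19). The chromosome 5 region had 141 sites over 2 Mb, with 76 in its first Mb and 65 in its second (ranks 153 and 417). The median of the other bins was 49 sites. The megabase before and the megabase after each region held between 24 and 86 sites. Each region of 1 Mb held more sites than the megabases beside it. Those beside the chromosome 5 region held 65 and 74, much like its own. The megabase before the distal chromosome 2 region held 40 sites, but at a median distance of 2098 bp from start to start, close to the region's 2244 bp. At the borders, the outermost sites inside a region lay between 149 bp and 112802 bp from its edge, and the nearest sites outside lay between 4025 bp and 47176 bp from it.

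Footprint numbers did not follow site numbers. The proximal chromosome 2 region had 856 footprints, the chromosome 5 region 495, the chromosome 17 region 429, the distal chromosome 2 region 331 and the chromosome 6 region 134. Across all sites, 45.4% held a footprint. The share was 82.4% in the proximal chromosome 2 region (95% interval by Wilson's method 74.2 to 88.4%, for counting error alone and with sites taken as independent), 73.8% in the distal chromosome 2 region (66.2 to 80.2%) and 61.5% in the chromosome 17 region (54.6 to 67.9%). In the chromosome 6 region it was 47.6% (39.7 to 55.7%) and in the chromosome 5 region 43.97% (36.0 to 52.2%). Since the regions were picked by their footprints and sites, the intervals are no test of a difference from 45.4%.

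Site width alone predicts part of these numbers, because wide sites hold more footprints. Predicted from 50 classes of width over all sites, the proximal chromosome 2 region held 2.08 times the expected number of footprints and the chromosome 5 region 1.28 times. The distal chromosome 2 region held 0.841 times, the chromosome 6 region 0.561 times and the chromosome 17 region 0.441 times the expected number. The median of the other 1270 bins with at least 50 sites was 0.939, and the 5th to 95th percentile was 0.0351 to 1.48. Thus the bin with the most sites of all lay below the median in footprints for its site widths, but within that range (rank 972 of 1276). Median site width was 651 bp in the chromosome 17 region, 603.5 bp and 541 bp in the proximal and distal chromosome 2 regions, 464 bp in the chromosome 6 region and 501 bp in the chromosome 5 region, against 532 bp over all sites.

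**Figure D1:**
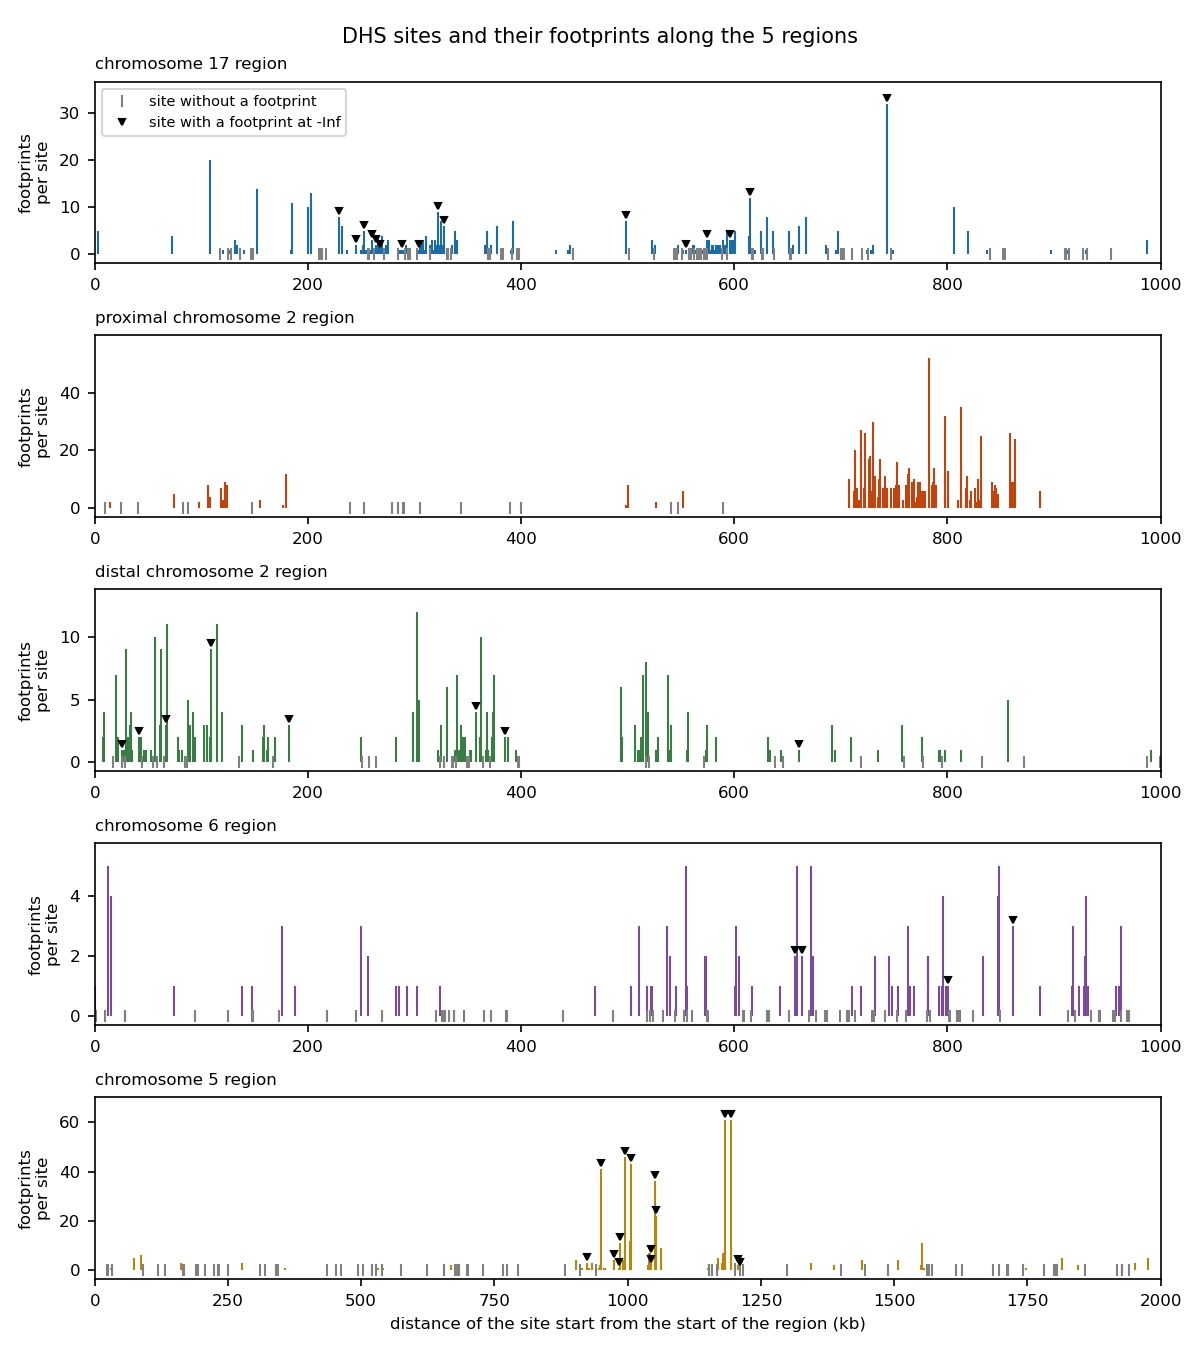
DHS sites along the 5 regions, with distance of the site start from the start of the region (kb) on the horizontal axis and footprints per site on the vertical axis. Coloured lines are sites with a footprint, grey ticks are sites without one, and black triangles mark sites with a footprint at -Inf. Sites of the proximal chromosome 2 region crowd into a single stretch, and the chromosome 5 region holds a few sites with 36 to 61 footprints.

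How footprints were spread over sites also set the regions apart. In the chromosome 5 region, 10 of the 141 sites held 10 or more footprints, and these had 69.5% of the region's footprints. In the proximal chromosome 2 region, 26 of 108 sites were of this kind and held 58.8%, and over all sites the share was 49.1%. In the chromosome 17 and distal chromosome 2 regions it was 28.4% and 16.3%, and 45 and 38 sites there had a single footprint. No site of the chromosome 6 region reached 10. Its highest number was 5, which 5 sites had, among them those at 130012604 to 130013497, 130554651 to 130555123 and 130658665 to 130659817.

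The sites with the most footprints ranged from 473 bp on chromosome 6 to 5043 bp on chromosome 5. Leading the chromosome 17 region, a site of 3491 bp (13743251 to 13746741) had 32 footprints, a site of 1569 bp (13108541 to 13110109) had 20 and a site of 1928 bp (13152012 to 13153939) had 14. In the proximal chromosome 2 region the 3 leading sites had 52 (77782236 to 77785096), 35 (77812926 to 77815212) and 32 footprints (77797967 to 77800377). In the distal chromosome 2 region they had 12 (177302159 to 177303582), 11 (177067701 to 177070233) and 11 footprints (177114286 to 177114900). The last of these was 615 bp wide and with 17.9 footprints per kb about as dense as the leading proximal site, which had 18.2 per kb. Over all sites the density was 4.08 per kb.

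Neighbouring sites were closer together in every region than in the whole list. Spacing is bound to the number of sites in a bin, by which regions were picked, so it is not a separate finding. The median distance from the start of a site to the start of the next was 1618 bp in the chromosome 17 region (interquartile range 980 to 3282 bp), 2359 bp in the proximal chromosome 2 region (1170 to 6946 bp) and 2244 bp in the distal one (1122 to 6119 bp). It was 3149.5 bp in the chromosome 6 region (1285 to 8980 bp) and 6362 bp in the chromosome 5 region (2291 to 17297 bp). Over all sites it was 10875 bp (3716 to 25650 bp). Distances under 2000 bp made up 14.9% of all distances. They made up 59.3% in the chromosome 17 region, 45.8% and 46.6% in the proximal and distal chromosome 2 regions, 40.4% in the chromosome 6 region and 22.9% in the chromosome 5 region.

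**Figure D2:**
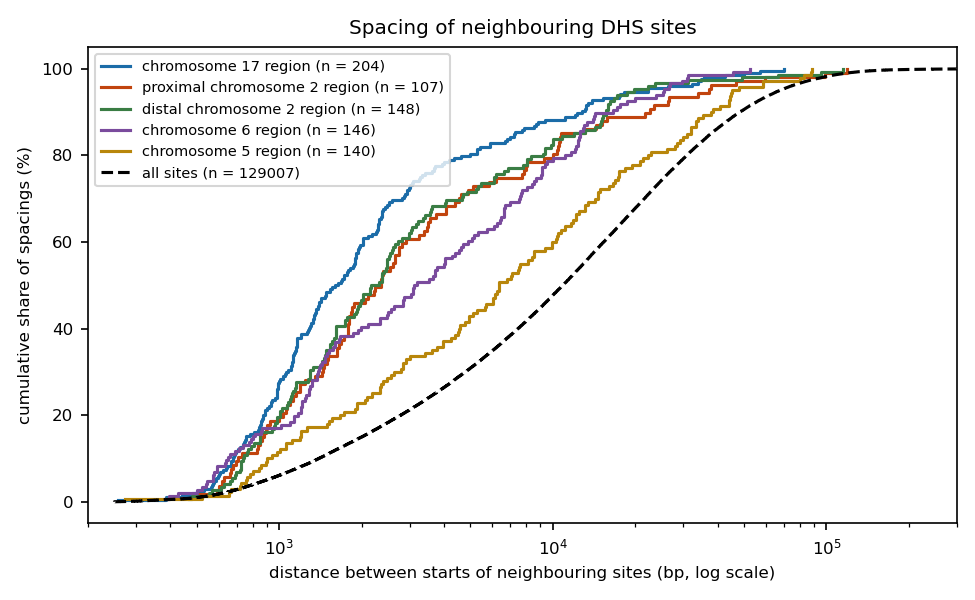
Cumulative share of the distances between starts of neighbouring sites (percent, vertical axis) by distance (bp, log scale) for each region and, dashed, for all sites. The chromosome 17 curve lies farthest to the left over most of its length, with a median of 1618 bp, and the chromosome 5 curve lies nearest to that of all sites.

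Regular repeats of distance were modest. For each bin, the distance shared by most pairs of sites (within 50 bp, up to 500 kb) was found. In the chromosome 17 region it was 2321 bp, shared by 22 pairs of sites where nearby distances averaged 7.92 pairs. That was the highest number among the 1276 bins with at least 50 sites. In the distal chromosome 2 region 14 pairs shared 5919 bp, against 4.28 for nearby distances (rank 5). In the proximal chromosome 2 region 10 pairs shared 1779 bp, in the chromosome 6 region 10 pairs shared 1212 bp, and in the chromosome 5 region 6 pairs shared 754 bp. Dense bins have more pairs of every distance, and among the other 23 bins with at least 100 sites the median was 9 pairs and the highest 17. With a tolerance of 20 bp, the leading distance in the chromosome 17 region was shared by 12 pairs and in the distal chromosome 2 region by 7. Site widths repeated little. Within the 5 regions no width was shared by more than 6 sites, and the most frequent in 3 of them was 251 bp, the smallest width in the list, which 3.94% of all sites had.

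Whole runs of sites recurred in 3 regions. A recurring run is a series of at least 4 neighbouring sites whose distances come back elsewhere in the region, in the same or the reversed order, each within 50 bp. Over the bins with at least 50 sites, 0.76% of sites lay in such runs and 3.45% of bins held one. The chromosome 17 region had 20 sites in runs (9.76%), the proximal chromosome 2 region 8 (7.41%) and the chromosome 6 region 8 (5.44%), and the distal chromosome 2 and chromosome 5 regions had none. By this share the chromosome 17, proximal chromosome 2 and chromosome 6 regions ranked 36, 41 and 44 of the 1276 bins. A run was found in 44 of these bins, and the highest share in any other bin was 35.4%. The shares were not compared with bins of like site density. With a tolerance of 20 bp the number was 8 in the chromosome 17 region and 0 in the proximal chromosome 2 and chromosome 6 regions.

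The longest run lay in the chromosome 17 region and had 6 sites. It ran from 13368016 to 13378265 and came back from 13651242 to 13661506, 283226 bp farther on. Its 5 distances were 1147, 678, 1158, 1142 and 5274 bp, and in the later run 1159, 668, 1136, 1164 and 5287 bp. Width was not used to find the run, and the 6 widths were 976, 527, 532, 556, 833 and 851 bp in the earlier run and 976, 517, 532, 584, 853 and 851 bp in the later one. The sites held 5, 0, 0, 0, 2 and 6 footprints in the earlier run and 5, 0, 0, 1, 2 and 6 in the later one. Distances, widths and footprint numbers thus came back together along these 6 sites.

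The chromosome 6 run had 4 sites, from 130533129 to 130544582 and again from 130741449 to 130752818, a shift of 208320 bp. The middle sites had the same widths in both runs, 1118 and 351 bp, with 3 and 2 footprints in the earlier run and 2 and 1 in the later. The outer sites held no footprint in either run, and their widths were 544 and 441 bp in the earlier run and 314 and 333 bp in the later. The run of the proximal chromosome 2 region was different. It matched in reversed order, from 77712646 to 77716724 and from 77726575 to 77732239. The matched sites had unlike widths, such as 327 bp against 1888 bp at one end and 335 bp against 970 bp at the other. It was not found when distances were taken between site centres or within 20 bp. The chromosome 17 region also held a reversed run of 4 sites, from 13287972 to 13294041 and from 13320981 to 13325599. Its matched widths were unlike too, at 1225, 1879, 719 and 1871 bp against 503, 1292, 1730 and 631 bp. Those sites held 1, 1, 0 and 2 footprints against 7, 2, 9 and 2.

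Over all recurring runs, 22 pairs of matched sites could be compared, some of them sharing sites, since the first 4 sites of the chromosome 17 run also matched their later copies in reversed order. Both sites had a footprint in 13 pairs, neither in 6 and only one of them in 3. A footprint was counted as recurring if the matched site had one at the same distance from its start, within 3 bp. In reversed runs the distance was taken from the end of the matched site. Of the 59 footprints in the earlier sites, a site in several pairs being counted once per pair, 17 (28.8%) recurred. Among neighbouring sites of the same regions it was 41 of 1410 (2.91%). Of the 17, the pairs of 976 bp and 851 bp sites in the 6-site run of chromosome 17 supplied 5 and 6. Widths of matched sites differed by a median of 169 bp, and those of neighbouring sites by 267 bp. With runs of at least 5 sites, which leaves the 6-site run of chromosome 17 alone, the median was 5 bp.

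A finer trace of recurrence was footprints with the same values. Twin footprints are here a pair within a region that share their width and all 6 decimals of the score. The score is a value the authors gave each footprint, and the sources used here do not state its scale. The measure was added after the lists had been seen, and neither shared values nor the distance between twins played a part in the choice of regions. Within 1 Mb bins, 0.499% of all footprints with a finite score had a twin, and 9.79% of the bins with at least 50 such footprints held a pair. The distal chromosome 2 region had 22 pairs, with 44 of its 323 finite footprints (13.6%). The chromosome 17 region had 23 pairs, with 46 of 409 (11.2%). The chromosome 5 region had 27 pairs over its 2 Mb, with 54 of 475 (11.4%). Within its first Mb alone 0 of 142 footprints had a twin, and within its second Mb alone the share was 6.61%. The chromosome 6 region had 2 pairs, with 4 of 130 footprints (3.08%). The proximal chromosome 2 region had 0 twins among 856 footprints. Sharing values was not confined to these regions. Among 1644 bins the distal chromosome 2 region ranked 9 and the chromosome 17 region 12, 38 other bins had more than 5%, and the highest had 35.8%. In the megabases beside the regions, 0 to 2 footprints had a twin. The stronger 50% of footprints, with more negative scores read as stronger, were also taken alone. Of these, 5.13% had a twin in the distal chromosome 2 region and 1.91% in the chromosome 17 region, against 0.351% over all 1 Mb bins. In the chromosome 5 region it was 7.75%, counted over 2 Mb and so not on a like footing with the others. Twins were mostly weak footprints. Their median score was -3.73 on chromosome 17, -3.86 in the distal chromosome 2 region and -4.14 on chromosome 5. All finite footprints there had medians of -4.43, -4.08 and -4.55, and the weakest score in the list was -3.54. The 2 pairs of chromosome 6 went the other way, at -4.46 against -4.19. With scores compared to 3 decimals, the proximal chromosome 2 region had 1.87%, against 1.02% over all bins.

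**Figure D3:**
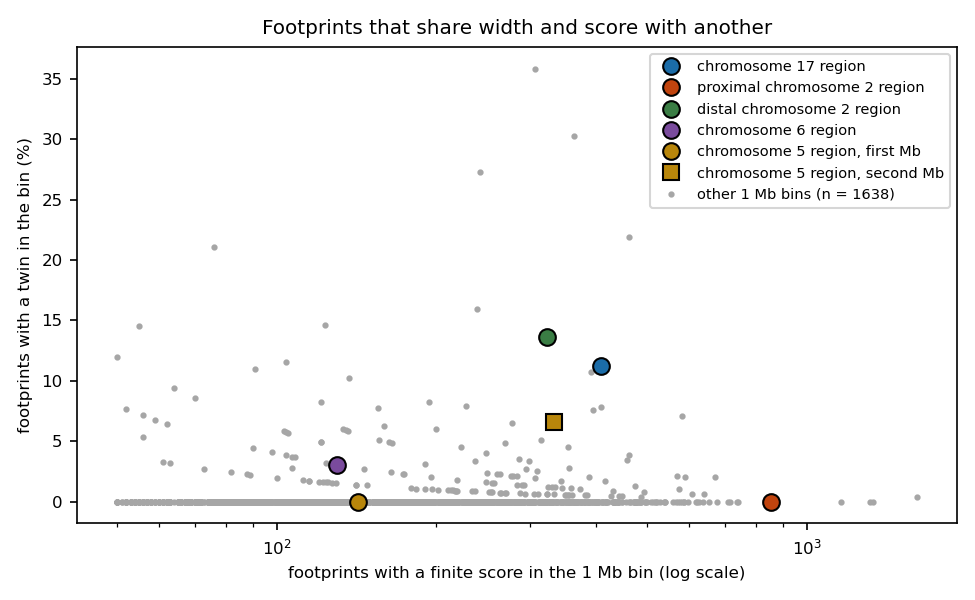
Share of footprints with a twin in the same bin (percent, vertical axis) by the number of footprints with a finite score in that bin (log scale), for bins of 1 Mb. Large symbols are the regions, with the first and second Mb of chromosome 5 apart, and grey points are the other 1638 bins. The distal chromosome 2 and chromosome 17 regions stand at 13.6% and 11.2%, and the proximal chromosome 2 region, with 856 footprints, stands at 0.

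The twins of the chromosome 17 region joined 2 neighbouring blocks. Of its 23 pairs, 21 had their first footprint between 13229723 and 13499386 and their second between 13523515 and 13746334. These were the pairs whose distance lay within 15% of the median of all pairs in the region, and it was 246.9 to 296.1 kb. Going from each pair to the next along the earlier block, the partner lay farther along the later block in 20 of 20 steps, so the order was kept throughout. The distance was not constant. It was 293.8 kb for the first pairs, 278.5 kb for several in the middle, 283.2 kb in the recurring run and 246.9 kb for the last pair. The other 2 pairs joined a site at 13131892 to one at 13152012, each with footprints 20121 bp apart.

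Both blocks of the chromosome 17 region were dense. The later block had 80 sites in 223.5 kb, 48 of them with a footprint, and 163 footprints. The earlier one had 79 sites in 270.5 kb, 55 with a footprint, and 155 footprints. Relative to the number predicted from site width, the later block had 0.433 times and the earlier 0.340 times as many. The later block held 6 and the earlier 14 of the region's 20 footprints at -Inf.

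The clearest single pair of sites lay in the recurring run. Both sites were 976 bp wide and began 283226 bp apart, at 13368016 and 13651242. Each held 5 footprints at the same 5 places, with the same widths (20, 30, 20, 12 and 20 bp) and the same scores (-3.75, -4.47, -3.66, -4.38 and -3.97). The last pair of the same run was different in its scores. Those sites were 851 bp wide and held 6 footprints at the same places with the same widths, but the score was shared by 1 alone, at -3.55. The other 5 scores were -4.00, -4.79, -4.25, -6.50 and -5.67 in the later site and -4.53, -5.22, -4.31, -6.69 and -5.41 in the earlier one.

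The distal chromosome 2 region showed the most compact blocks. By the same rule on distance, 21 of its 22 pairs joined footprints between 177020635 and 177069195 to footprints between 177330832 and 177375079, in the same order in 20 of 20 steps. The distance within a pair fell into 2 narrow ranges, close to 310.2 kb at the start of the blocks and between 304.5 and 305.9 kb farther on. The later block had 28 sites in 45.6 kb, 20 of them with a footprint, and 62 footprints. The earlier block had 27 sites in 50.1 kb, 21 with a footprint, and 75 footprints. The remaining pair joined sites of 721 bp at 177582585 and 177709230, whose shared footprint had a score of -5.51 at both places. The blocks took up a small part of the megabase. Their edges were set by the 21 pairs, so that they hold 21 of the 22 follows from the definition.

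**Figure D4:**
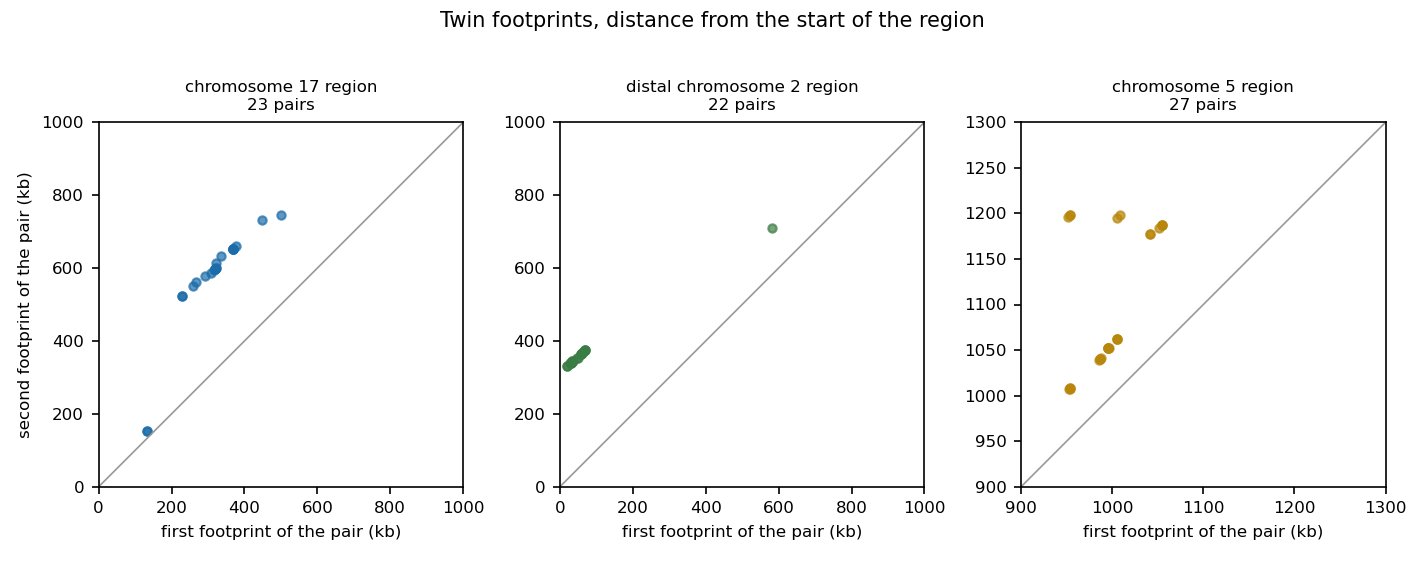
Position of the second footprint of each twin pair (kb from the start of the region, vertical axis) against that of the first (horizontal axis) in the chromosome 17, distal chromosome 2 and chromosome 5 regions, with the diagonal in grey. Points in the chromosome 17 and distal chromosome 2 panels rise in 1 line each apart from 2 pairs and 1 pair, whereas the 27 pairs of the chromosome 5 region form several short lines.

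Sites joined by twins were compared in width, which played no part in joining them. In the distal chromosome 2 region, 31 sites (20.8%) were joined, and the widths of joined sites differed by a median of 103 bp, against 228.5 bp for neighbouring sites. In the chromosome 17 region, 31 sites (15.1%) were joined, and here the widths of joined sites differed more than those of neighbours, by 723.5 bp against 372.5 bp. In the chromosome 5 region, 15 sites (10.6%) were joined and the difference was 951.5 bp against 186 bp for neighbours. Joined sites reached 3996 bp on chromosome 17 and 5043 bp on chromosome 5, where the median sites of the regions were 651 and 501 bp wide. Wide sites can differ by more, so neighbours are not a like baseline. Whether joined sites were more or less alike than other sites of their width was not tested. The twins share place and score by definition of the joined pair, so the other footprints were counted without them, with the sites set against each other at the distance between their twins. A site in several pairs was counted once per pair. On chromosome 17, 12 of the 38 remaining footprints in the earlier sites (31.6%) had a partner at the same place within 3 bp, 10 of them with the same width. In the distal chromosome 2 region it was 15 of 53 (28.3%), 10 with the same width. In the chromosome 5 region it was 57 of 233 (24.5%), 24 with the same width. The same share among sites not joined was not computed, and the 6 broadest joined sites of chromosome 5 held 12.3 footprints per kb. How far these shares exceed those of unrelated sites is thus not known. Where place and width were shared but not the score, the scores differed by a median of 0.250 in the chromosome 17 region (10 footprints), 0.276 in the distal chromosome 2 region (10) and 0.786 in the chromosome 5 region (27, some of them with a twin in another site).

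The chromosome 5 region was led by 6 broad sites. In order along the chromosome, site 1 (14950913 to 14954795) had 41 footprints, site 2 (14994132 to 14998513) had 46 and site 3 (15005768 to 15008963) had 43. Site 4 (15050757 to 15053314) had 36, and sites 5 (15183570 to 15187831) and 6 (15194680 to 15199722) had 61 each. They were 2558 to 5043 bp wide. Together they held 288 footprints, 58.2% of the region's 495, which was 2.39 times the number predicted from their width, and 11 of its 20 footprints at -Inf. A seventh site over 2000 bp, at 15439426, had 4 footprints and no twin.

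The twins sorted these 6 sites into 2 sets. Sites 1 and 3 shared 4 twin pairs, sites 1 and 6 shared 3 and sites 3 and 6 shared 1. Sites 2 and 4 shared 5 and sites 4 and 5 shared 1. No twin joined a site of the first set (1, 3 and 6) to a site of the second (2, 4 and 5), and none joined sites 2 and 5. Neighbours of different sets lay at like distances in 2 places, since site 3 began 11.6 kb after site 2 and site 6 began 11.1 kb after site 5. Over the whole region, 16 of the 27 twin pairs were 54.1 to 57.3 kb apart, 6 were 132.8 to 135.3 kb, 2 were 190.2 kb and 3 were 244.8 to 244.9 kb apart.

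**Figure D5:**
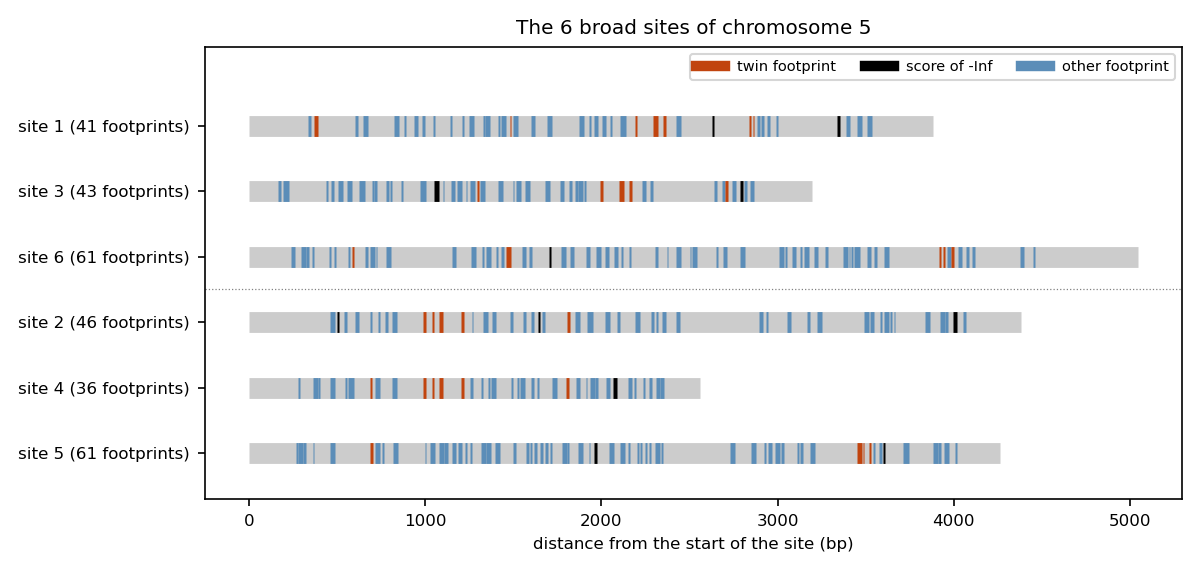
The 6 broad sites of the chromosome 5 region, drawn as grey bars from their start (distance in bp on the horizontal axis), with footprints in blue, footprints with a twin in the region in orange and footprints at -Inf in black. Sites 1, 3 and 6, above the dotted line, are joined to each other by twins, as sites 2 and 5 are to site 4, and no twin crosses the line.

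Outside the stretch that the twins span, the chromosome 5 region had few footprints per site, but its sites were not sparse. It had 72.2 sites per Mb before the stretch and 56.7 after it, against a median of 49 in the other bins. Between 14950913 and 15199722 it had 30 sites, 26 of them with a footprint (86.7%), 400 footprints and 17 of the 20 at -Inf. Before that stretch, 67 sites held 40 footprints, and 26.9% of them had any. After it, 44 sites held 55 footprints, and 40.9% had any. Against the prediction from width, the stretch had 1.80 times the expected number, the part before it 0.475 times and the part after it 0.690 times. In other bins with at least 50 sites, the 5th to 95th percentile was 0.0351 to 1.48. The edges of the stretch were set by sites with twins, so its high values are partly built in. The region's values over 2 Mb are thus an average of unlike parts.

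The proximal chromosome 2 region was also an average of unlike parts, but without twins. From 77707577 to 77865404 it had 72 sites in 157.8 kb, and 72 of 72 held a footprint. These sites had 769 footprints, 12.97 per kb and 2.30 times the number predicted from width, at a median distance of 1658 bp from start to start. Before that stretch, 35 sites in 580.1 kb held 81 footprints, 45.7% of them had any, and the number was 1.07 times that predicted. Neither part had a footprint at -Inf, and footprints of the maximum width of 30 bp made up 8.06% of the region's footprints, against 11.6% of all footprints. Elsewhere in the list, 7 of its 856 footprints (0.818%) met a footprint of equal width and score. Over the whole list, 1.4% of finite footprints shared width and score with some other footprint.

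Footprints at -Inf were concentrated in 4 of the 5 regions. They made up 0.151% of all footprints (496). The chromosome 17 region had 20 (4.66%), the chromosome 5 region 20 (4.04%), the chromosome 6 region 4 (2.99%), the distal chromosome 2 region 8 (2.42%) and the proximal chromosome 2 region 0. An even share would give 0.647, 0.746, 0.202, 0.499 and 1.29 footprints, in the same order. No bin of 1 Mb outside the regions held more than 10, and the megabases beside the regions held 0 to 2. The chromosome 17 region ranked 1 among all bins. The 20 of the chromosome 5 region cover 2 Mb, with 9 in its first Mb and 11 in its second (ranks 4 and 2). The distal chromosome 2 and chromosome 6 regions ranked 6 and 17, so some bins outside the regions held more than they did. These numbers belong to the values from which the regions were picked.

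The regions differed in how widely their -Inf footprints were spread. In the chromosome 5 region all 20 fell between 14923765 and 15211403, a span of 287.6 kb in 15 sites. Taken per -Inf footprint, the site around it held a median of 38.5 footprints. In the chromosome 17 region the 20 spanned 516.0 kb, in 16 sites, and a single site of 719 bp held 3, the first of them at 13252872. In the distal chromosome 2 region the 8 lay in 8 sites over 634.4 kb and in the chromosome 6 region the 4 lay in 4 sites over 204.7 kb. Of the 52 in all, 9 were the only footprint of their site. Footprints of 30 bp were more frequent than in the list as a whole (11.6%) in the chromosome 6 region (31.3%), the chromosome 17 region (22.8%) and the distal chromosome 2 region (16.6%), and close to it in the chromosome 5 region (11.7%). The median finite score was between -4.55 in the chromosome 5 region and -4.08 in the distal chromosome 2 region, and -4.38 over all finite scores.

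A score of -Inf was not shared between joined sites. Of the 52, 21 lay in a site joined to another by twins, 13 of them in the chromosome 5 region and 6 in the chromosome 17 region. For 9 of these 21 a footprint overlapped the matching place in the joined site, and in none of the 9 was that footprint at -Inf. The most negative overlapping score ran from -4.63 to -17.9. In the chromosome 5 region the -Inf footprint of site 3 at 15006821 to 15006848, for example, faced a footprint with a score of -14.7 in a joined site. For the others no footprint overlapped the matching place.

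The chromosome 17 region was also tied to a place outside it. Elsewhere in the list, 25 of its footprints (6.11%) met a footprint of equal width and score, and 18 of these did so in a stretch of the same chromosome between 7504464 and 7601065. The 18 footprints of the region began between 13229723 and 13632064, in and between the dense blocks, and met 12 different footprints of that stretch. In 96.6 kb the stretch held 52 sites, 145 footprints and 3 at -Inf, and its own megabase held no twin. The distal chromosome 2, chromosome 6 and chromosome 5 regions had 1, 1 and 2 footprints with such a partner elsewhere.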

How the data were processed

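DNase I hypersensitive sites and footprints were the authors' calls on 1 library, with 2 deposited samples pooled with earlier reads, per the labels' protocols. The build is mm9 and HOMER is named, per the submitters' processing notes. The sources used here give no versions, no name of the footprint caller and no account of reads that match several places. The deposited site list gives positions alone. The deposited footprint list adds a column headed p-value, used here as a score, because every value is negative or -Inf and no source used here states a scale. The name of the deposited footprint list carries a false discovery rate of 0.01 and a largest width of 30 bp. Depth is unknown, so weak sites or footprints could be missing without notice.

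Positions are printed 1-based, and the BED form was assumed. Footprints were given to sites at 1 bp of overlap or more. Bins of 1 Mb were taken by site start. Expected footprints were the mean per site in 50 width classes. Recurring runs, shared distances, twins and joined sites were computed with Python 3.11.15, numpy 2.4.6, pandas 2.3.3 and scipy 1.17.1, and figures were drawn with matplotlib 3.10.9. The search for runs and twins was tested on simulated lists. No test was made, since the regions were picked from these lists and there is 1 library. In each region the text names the longest recurring run, the 3 sites with the most footprints, the most frequent pair distance and the -Inf footprints by count, and other sites named were chosen after their values were seen. The regions and measures were chosen with earlier results of these data known. Settings tried were tolerance, run length, site centres, sites of 300 bp or more, end-to-start gaps, 20 width classes, the stronger 50% of footprints and looser or stricter definitions of a twin. RNA-seq samples were left out, because no file of theirs was used here.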

Additional observations from a re-analysis of the deposited data

How the results depend on the processing

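No paired analysis was possible because the calls come from 1 library pooled over its runs, and for the same reason no sample could be left out. Of 103 values under alternatives, 72 stayed within their error or within 1.5 times and 31 moved. Whether a value reversed was not checked. With the stronger 50% of footprints, sites with a footprint made up 42.4% (chromosome 17), 70.4% (proximal chromosome 2), 40.3% (distal chromosome 2), 27.2% (chromosome 6) and 27.0% (chromosome 5), since fewer footprints remain. The share of twins was then 1.91% (chromosome 17) and 5.13% (distal chromosome 2), against 0.351% over all 1 Mb bins. It was 7.75% on chromosome 5, counted over 2 Mb. With scores taken to 3 decimals, 1.87% of proximal chromosome 2 footprints had a twin, against 1.02% over all bins. A tolerance of 20 bp left 12 pairs at the leading distance on chromosome 17 and 7 in the distal chromosome 2 region, and put 8, 0 and 0 sites in recurring runs on chromosome 17, in the proximal chromosome 2 region and on chromosome 6. A tolerance of 100 bp gave 76 sites on chromosome 17, 16 and 12 in the proximal and distal chromosome 2 regions and 26 on chromosome 6. Runs of 5 sites left 12 sites on chromosome 17 and 0 in the proximal chromosome 2 and chromosome 6 regions, and the median width difference of matched sites was then 5 bp. Runs of 3 sites gave 106, 35, 44, 24 and 6 sites on chromosome 17, in the proximal and distal chromosome 2 regions and on chromosomes 6 and 5. Site centres gave 0 in the proximal chromosome 2 region. Median gaps from the end of a site to the start of the next were 533 bp (chromosome 17), 1225 bp (proximal chromosome 2) and 1378 bp (distal chromosome 2), shorter by construction. The numbers of sites in runs thus depend on tolerance and run length. Twin settings were chosen after seeing the data.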

Other observations

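Outside the 5 regions, shared footprint values were most frequent in a few other bins among those of 1 Mb with at least 50 finite footprints. On chromosome 17 the bin from 15 Mb had 110 of 307 finite footprints with a twin (35.8%) and the bin from 6 Mb had 110 of 364 (30.2%). On chromosome 10 the bin from 81 Mb had 66 of 242 (27.3%), and on chromosome 14 the bin from 26 Mb had 101 of 461 (21.9%). These bins held 4, 2, 0 and 0 footprints at -Inf and 71, 119, 54 and 95 sites. Recurring runs of sites were most frequent in still other bins, among those with at least 50 sites. On chromosome 11 the bin from 48 Mb had 28 of 79 sites in runs (35.4%) and the bin from 27 Mb had 20 of 61 (32.8%), and on chromosome 14 the bin from 53 Mb had 36 of 121 (29.8%). They were chosen for these values after the values were seen.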
